A study of Arabidopsis thaliana with 34 samples.

Results

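Leaves of Arabidopsis thaliana plants with 1 copy of a 684 kb stretch of chromosome 3 were compared with leaves of sibling plants that have both copies. The samples were chosen by their titles, which place them in line 17.11 of the construct pAP146 in the T3 generation, and they are 3 heterozygous and 4 sibling control samples, 7 of the 34 samples in the series. All 7 are leaves of single plants, collected after about 2 weeks in long days at 21 °C. The heterozygous plants carry the deletion on 1 of their homologous chromosomes, the sibling controls segregated from the same line without it, and both are in the Col-0 background. Beside them stand 4 homozygous samples of the same line, which are whole seedlings because these plants were delayed, and 4 samples of Col-0 leaves, the untransformed wild type. The deletion was made by SaCas9, a Cas9 nuclease from Staphylococcus aureus, expressed from an egg-cell-specific promoter together with a pair of guide RNAs. The whole line goes back to 1 deletion plant of the T2 generation, and line 17 was not a single-insertion line. All values therefore come from 1 deletion event, and whether the sequenced plants carried the T-DNA is not given in the sources used here.

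An ancestor of Arabidopsis duplicated its whole genome, and many genes of the duplicated blocks are still present as pairs of syntenic paralogues. A plant that loses 1 copy of a gene can make less of its transcript in proportion, or it can make up for the loss by a higher output of the copy that remains or of the paralogue. The heterozygous leaves ask this for all deleted genes of a block at once, without the developmental delay of homozygous plants.

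The pair of guides sets the ends of the deletion and thereby which genes are left in 1 copy. Their spacers, each with the following PAM, the motif that the nuclease needs beside its target, in capitals, are as follows.
spacer1: gcgatgagaaaccttcatctaCAGGGT
spacer2: gaaggcatagttgtcccatatTTGGGT
Each spacer had 1 perfect match in the TAIR10.1 genome, on the + strand, at chr3:14955281-14955301 for spacer1 and at chr3:15639150-15639170 for spacer2. With a cut 3 bases from the PAM, the breaks follow bases 14955298 and 15639167 and lie 683869 bases apart. The left break falls in the coding sequence of PRK3 (AT3G42880), which encodes a receptor-like kinase of pollen, so that 712 of 1902 coding bases remain. The right break falls in no annotated gene. RefSeq places 190 genes wholly between the breaks, and 59 of them are protein-coding, 109 are pseudogenes and the rest are non-coding or transcribed pseudogenes. The study lists 60 genes as deleted, which are these 59 and PRK3, and all 60 were quantified. They are called the genes of the block below, although the syntenic block of the study is slightly larger than the deletion.

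The genotype labels were checked first, by the level of these genes in every sample. Levels are given in TPM, a share of all transcripts after division by transcript length. Over the 60 genes, TPM summed to 134, 129 and 118 in the 3 heterozygous leaves, against 240, 231, 279 and 244 in the 4 sibling leaves. The groups were far apart, with a mean of 127 ± 8.15 TPM in heterozygous leaves (SD, n = 3) and 248 ± 20.9 TPM in sibling leaves (SD, n = 4), a ratio of 0.513. In homozygous seedlings the sum was 0.0719 to 0.154 TPM, so that hardly any reads of other genes were assigned to these transcripts, and in Col-0 leaves it was 234 to 266 TPM. LTPG2 alone held 36.1% of the sum in heterozygous leaves and 40.4% in sibling leaves. Without it the sum was 81.4 ± 2.29 TPM in heterozygous leaves (SD, n = 3) and 148 ± 13.2 TPM in sibling leaves (SD, n = 4), a ratio of 0.55. In whole leaves, fewer cells of a type and less RNA per cell cannot be told apart.

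**Figure D1:**
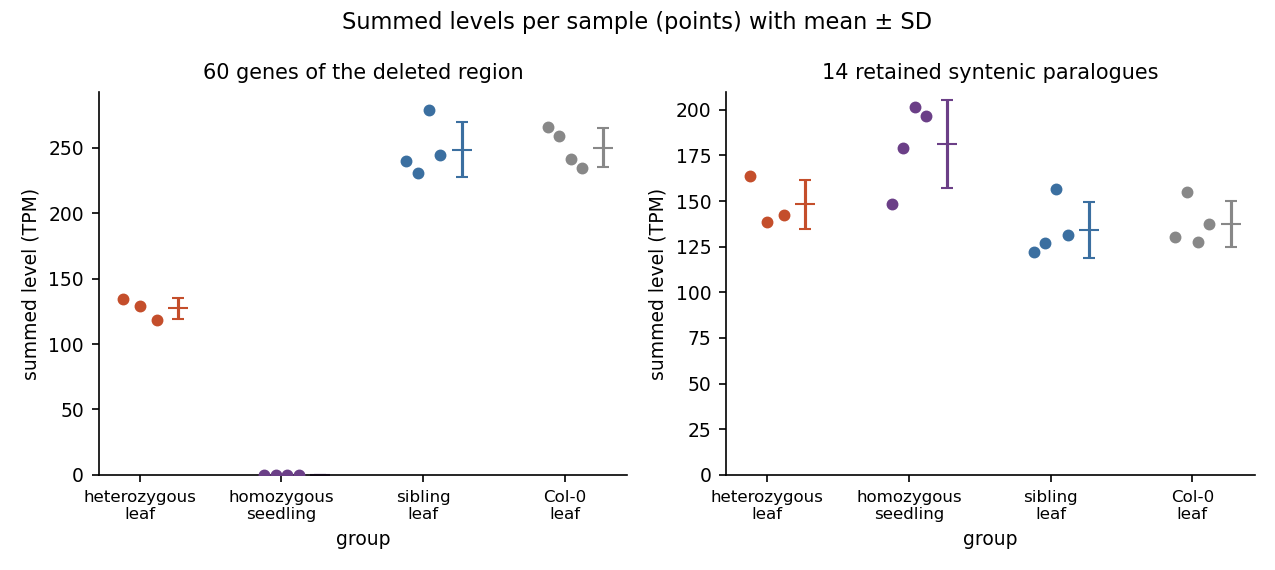
Summed TPM of the 60 genes of the deleted region (left) and of their 14 retained syntenic paralogues (right) in each sample, with mean ± SD beside the points. The 3 heterozygous leaves sit between 118 and 134 TPM for the deleted region and the 4 sibling leaves between 231 and 279 TPM, whereas for the paralogues the heterozygous range of 139 to 164 TPM overlaps the sibling range of 122 to 157 TPM.

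Most genes of the block were at or near 0 in leaves. Of the 60 genes, 18 passed the filter on low counts and 42 did not. No read was assigned to 32 of the 42 in any heterozygous or sibling leaf, and the other 10 reached at most 0.37 TPM in a single leaf. These 42 genes include PRK3, the tapetum gene ATA1 (AT3G42960), MEE38 (AT3G43160), the cysteine-rich peptide genes LCR30 and LCR33, a pair of vacuolar iron transporter family genes (AT3G43630 and AT3G43660) and a pair of GDSL lipase family genes (AT3G43550 and AT3G43570). Nothing can be said of their dose in leaves at this depth.

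In the count model, all 18 tested genes had a negative log2 fold change (heterozygous over sibling), with a median of -0.94 against 0.00 over all 20833 genes tested. Of the 18, 11 were called lower and 0 higher (edgeR quasi-likelihood test, Benjamini-Hochberg adjusted p under 0.05). These 11 were the only genes called in the whole comparison, 0.0528% of the genes tested. Their log2 fold changes lay between -1.22 and -0.84, where a halved transcript level would be -1. The 95% interval of each of the 18 genes held -1, and only those of SUS4 and AT3G43430 also held 0. Over all 20833 genes tested, 3065 intervals held -1. Every heterozygous leaf lay below every sibling leaf for 16 of the 18 genes in TPM, a pattern that 1.25% of all tested genes showed. On the scale of TMM-normalized CPM, the counts scaled to library size by TMM, it was again 16 of the 18, and 3.42% of all tested genes.

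**Figure D2:**
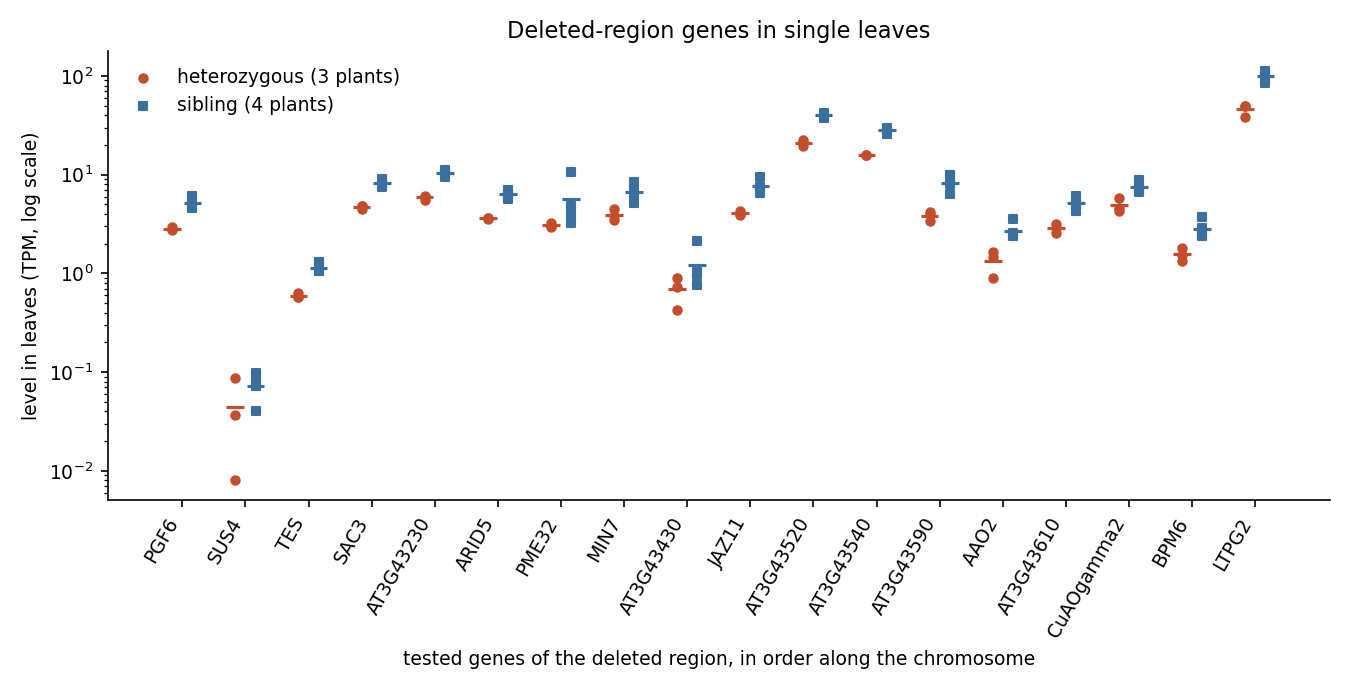
Level in TPM (log axis) of the 18 tested genes of the deleted region in each heterozygous leaf (circles, left of each pair) and each sibling leaf (squares), with the group means as bars. The heterozygous points lie below all sibling points for 16 genes and overlap them for SUS4 and AT3G43430.

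The most abundant gene of the block was LTPG2 (AT3G43720, chr3:15615386-15617309), which encodes a membrane-anchored lipid transfer protein that takes part in the export of cuticular wax. It had 50.2, 49.5 and 38.0 TPM in the heterozygous leaves, against 104, 84.1, 112 and 101 TPM in the sibling leaves. No heterozygous leaf came near a sibling leaf, and the log2 fold change of -1.22 ± 0.157 (SE) was the lowest of the 18 (adjusted p = 0.0172, edgeR).

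AT3G43520 (chr3:15405984-15407949) and AT3G43540 (chr3:15430660-15433355) came next in level. AT3G43520 belongs to the transmembrane 14C family, whose FAX members carry fatty acids out of plastids. It had 22.4, 21.3 and 19.5 TPM in heterozygous leaves, against 37.5, 39.2, 42.1 and 41.6 TPM in sibling leaves. Its log2 fold change was -1.02 ± 0.130 (adjusted p = 0.00659, edgeR). AT3G43540 encodes a protein with a DUF1350 domain. Its values were 15.79, 16.01 and 15.94 TPM in heterozygous leaves, against 28.2, 29.7, 28.9 and 25.9 TPM in sibling leaves, with a log2 fold change of -0.91 ± 0.101 (adjusted p = 0.00659, edgeR). The spread between the heterozygous leaves was very small for this gene, with an SD of 0.114 TPM.

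Several called genes act on membranes and membrane traffic. SAC3 (AT3G43220, chr3:15196812-15203139) encodes a phosphoinositide phosphatase of the SAC domain family. It had 4.79, 4.50 and 4.81 TPM in heterozygous leaves, against 7.501, 7.74, 9.09 and 8.70 TPM in sibling leaves, a log2 fold change of -0.90 ± 0.105 (adjusted p = 0.00914, edgeR). AT3G43230 (chr3:15207367-15209853) encodes a zinc finger protein of the RING/FYVE/PHD type, and FYVE domains bind the lipid phosphatidylinositol 3-phosphate. It had 5.99, 5.54 and 6.15 TPM in heterozygous leaves, against 9.45, 10.4, 11.2 and 10.9 TPM in sibling leaves, and its log2 fold change was -0.92 ± 0.135 (adjusted p = 0.0172, edgeR). MIN7 (AT3G43300, chr3:15233845-15245281) encodes a guanine nucleotide exchange factor for ARF GTPases at the trans-Golgi network and is a target of the bacterial effector HopM1. It had 3.84, 3.44 and 4.49 TPM in heterozygous leaves, against 5.11, 7.10, 8.39 and 6.05 TPM in sibling leaves. The groups did not overlap, and the log2 fold change of -0.84 ± 0.138 was the smallest in size among the 11 calls (adjusted p = 0.0439, edgeR).

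A further group encodes nuclear, nucleic acid-binding or cytoskeletal proteins. ARID5 (AT3G43240, chr3:15209831-15214947) encodes a protein with an ARID DNA-binding domain. It had 3.62, 3.58 and 3.68 TPM in heterozygous leaves, against 6.19, 6.64, 6.95 and 5.70 TPM in sibling leaves, a log2 fold change of -0.90 ± 0.0877 (adjusted p = 0.00367, edgeR). Its 3 heterozygous leaves were almost equal. AT3G43590 (chr3:15509527-15512574), a gene for a CCHC-type zinc knuckle protein, had 4.22, 3.38 and 3.96 TPM in heterozygous leaves, against 6.41, 8.33, 9.86 and 8.14 TPM in sibling leaves, with a log2 fold change of -1.17 ± 0.115 (adjusted p = 0.00367, edgeR). AT3G43610 (chr3:15517576-15524096) encodes a protein of the Spc97/Spc98 family, whose members nucleate microtubules in gamma-tubulin complexes. It had 3.17, 2.57 and 2.90 TPM in heterozygous leaves, against 4.27, 5.57, 6.04 and 4.96 TPM in sibling leaves, and its log2 fold change was -0.94 ± 0.0934 (adjusted p = 0.00367, edgeR). The models of ARID5 and AT3G43230 overlap at their 3' ends on opposite strands, as do those of AT3G43590 and AAO2. The library kit marks strand, but whether the counting used it is not given in the sources used here.

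The other 2 calls were PGF6 and JAZ11. PGF6 (AT3G42950, chr3:15015086-15018653) encodes a pectin lyase-like protein of the polygalacturonase family. It had 2.94, 2.75 and 2.84 TPM in heterozygous leaves, against 4.90, 4.61, 6.04 and 5.10 TPM in sibling leaves, and a log2 fold change of -0.95 ± 0.118 (adjusted p = 0.0159, edgeR). JAZ11 (AT3G43440, chr3:15367546-15370157) encodes a JAZ protein, a family of repressors of jasmonate signalling. It had 4.32, 3.98 and 3.90 TPM in heterozygous leaves, against 6.54, 7.42, 9.42 and 7.25 TPM in sibling leaves, and a log2 fold change of -1.0 ± 0.138 (adjusted p = 0.0296, edgeR).

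The 7 genes that were tested and not called had log2 fold changes of -1.11 to -0.71, which overlap those of the called genes, with larger standard errors (0.193 to 0.683, against 0.0877 to 0.157 for the calls). AAO2 (AT3G43600), an aldehyde oxidase gene, had 1.65, 0.894 and 1.47 TPM in heterozygous leaves, against 2.54, 2.38, 3.52 and 2.42 TPM in sibling leaves. Its log2 fold change was -1.11 ± 0.193 (adjusted p = 0.0739, edgeR), and it was called by DESeq2 (adjusted p = 2.02e-05). BPM6 (AT3G43700), which encodes a MATH-BTB adaptor of cullin-based ubiquitin ligases, had 1.83, 1.34 and 1.55 TPM in heterozygous leaves, against 2.38, 2.86, 3.71 and 2.45 TPM in sibling leaves. TES (AT3G43210), a kinesin gene needed for cytokinesis, had 0.629, 0.578 and 0.572 TPM in heterozygous leaves, against 1.05, 1.298, 1.19 and 1.05 TPM in sibling leaves. Groups did not overlap for either gene, and the log2 fold changes were -0.94 ± 0.216 for BPM6 (adjusted p = 0.471, edgeR) and -1.04 ± 0.226 for TES (adjusted p = 0.495, edgeR). DESeq2 called both, with adjusted p = 0.000268 for BPM6 and 0.0100 for TES.

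PME32 (AT3G43270), a pectin methylesterase gene, had 3.02, 3.21 and 2.95 TPM in heterozygous leaves, against 3.26, 3.94, 10.7 and 4.80 TPM in sibling leaves. Sibling replicate 3 was far above the rest, and the log2 fold change of -0.94 ± 0.331 was not called and became -0.51 without that leaf. CuAOgamma2 (AT3G43670), a copper amine oxidase gene of polyamine breakdown, had 4.26, 5.85 and 4.58 TPM in heterozygous leaves, against 8.75, 7.82, 6.74 and 6.86 TPM in sibling leaves, and had the log2 fold change nearest to 0, -0.71 ± 0.230 (adjusted p = 1, edgeR). AT3G43430, a RING/U-box gene, had 0.909, 0.428 and 0.729 TPM in heterozygous leaves, against 0.963, 1.02, 2.11 and 0.754 TPM in sibling leaves. SUS4 (AT3G43190), a sucrose synthase gene, stayed under 0.1 TPM in all leaves, with 0.0879, 0.00815 and 0.0368 TPM in heterozygous leaves, against 0.0805, 0.0404, 0.0987 and 0.0716 TPM in sibling leaves. The groups overlapped for both AT3G43430 and SUS4.

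**Figure D3:**
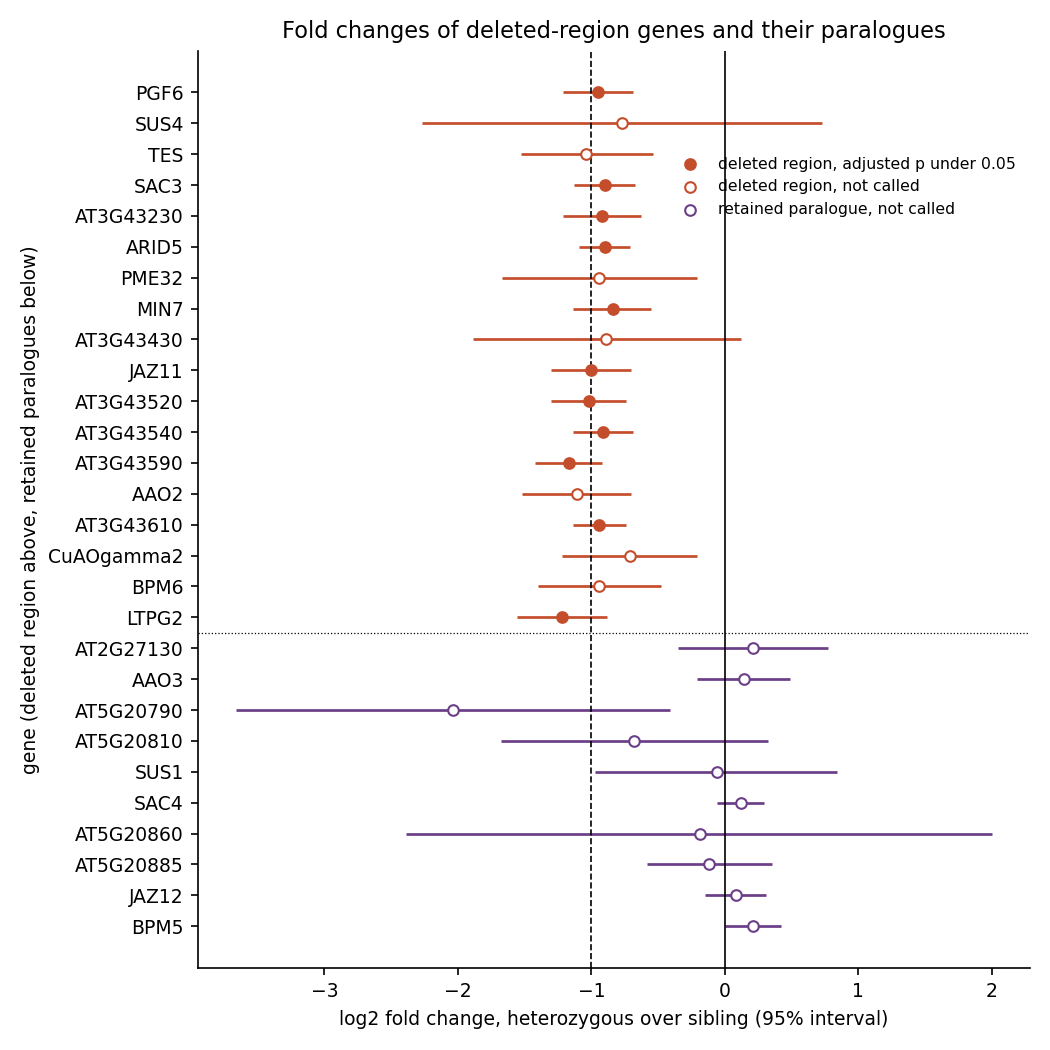
Log2 fold change (heterozygous over sibling) with its 95% interval for the 18 tested genes of the deleted region and the 10 tested paralogues, with filled points for adjusted p under 0.05. The 18 deleted-region genes have a median of -0.94 and all their intervals cross the dashed line at -1, whereas the intervals of 9 of the 10 paralogues hold 0.

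The fold changes held across settings, whereas the calls did not. Over 13 alternatives the log2 fold changes of the 11 called genes stayed between -1.33 and -0.76. With the compared groups only, 10 deleted genes were called and MIN7 was not (adjusted p = 0.123, edgeR). The count of calls was 3 without heterozygous replicate 1 (ARID5, AT3G43590 and AT3G43610), 5 without heterozygous replicate 2 (these and AT3G43520 and AT3G43540) and 0 without heterozygous replicate 3. In this last case the adjusted p of the 11 genes ran from 0.0518 to 0.255 (edgeR), and 16 deleted genes still had an unadjusted p under 0.05. It was 7 without sibling replicate 1, 8 without sibling replicate 2, and 6 without sibling replicate 3 or without sibling replicate 4. PGF6, AT3G43230, JAZ11 and LTPG2 lost the call without sibling replicate 1. AT3G43230, MIN7 and JAZ11 lost it without sibling replicate 2, and PGF6, AT3G43230, MIN7, JAZ11 and LTPG2 without sibling replicate 3 or 4.

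Each heterozygous leaf showed the reduced dose by itself. Over the 17 tested genes of the block that averaged 1 TPM or more in siblings, the median ratio of TMM-normalized CPM to the sibling mean was 0.515, 0.523 and 0.505 in the 3 heterozygous leaves. It was 0.978, 0.978, 1.07 and 0.944 in the 4 sibling leaves. Across these genes the coefficient of variation in TPM had a median of 6.83% between heterozygous leaves and 12.5% between sibling leaves.

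The 14 retained syntenic paralogues, which are still present in 2 copies, were the second question. Of the 10 that passed the filter none was called (edgeR), none was called by DESeq2, and 1 had an unadjusted p under 0.05. Among them 5 had a positive and 5 a negative log2 fold change, with a median of 0.01. AT5G20860, with at most 1 count in each leaf, did not pass the filter with leaf samples only, and over the other 9 there were 5 positive and 4 negative values with a median of 0.08. Their sum was 164, 139 and 142 TPM in heterozygous leaves, against 122, 127, 157 and 131 TPM in sibling leaves, and these ranges overlap. The ratio of the means was 1.1 in TPM and 1.04 in TMM-normalized CPM. With single leaves left out it was 1.04 to 1.17 in TPM. JAZ12 held 71.1% of the sum in heterozygous leaves and 69.7% in sibling leaves, and without it the ratio was 1.05.

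JAZ12 (AT5G20900), the partner of JAZ11, had 118, 99.9 and 98.2 TPM in heterozygous leaves, against 82.3, 89.3, 109 and 93.9 TPM in sibling leaves. The log2 fold change was 0.08 with a 95% interval of -0.15 to 0.31. JAZ11 supplied 3.72% of the transcripts of the pair in heterozygous leaves and 7.56% in sibling leaves. SAC4 (AT5G20840), the partner of SAC3, had 8.75, 7.79 and 9.55 TPM in heterozygous leaves, against 6.74, 7.48, 8.35 and 7.58 TPM in sibling leaves. Its log2 fold change was 0.12 (95% interval -0.06 to 0.29), and SAC3 supplied 35.1% of the pair in heterozygous leaves and 52.3% in sibling leaves. The summed level of the SAC3 and SAC4 pair was 13.4 ± 1.04 TPM in heterozygous leaves (SD, n = 3) and 15.8 ± 1.38 TPM in sibling leaves (SD, n = 4), and the ranges overlapped.

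BPM5 (AT5G21010), the partner of BPM6, came nearest to a difference among the well-measured pairs. It had 6.08, 5.75 and 6.77 TPM in heterozygous leaves, against 4.26, 5.58, 5.45 and 4.92 TPM in sibling leaves. The leaves did not overlap in TPM, a pattern shown upward by 6.08% of all tested genes, and the log2 fold change of 0.21 ± 0.0984 was not called (unadjusted p = 0.0531, adjusted p = 1, edgeR). AT2G27130, the partner of LTPG2 and a lipid transfer protein gene as well, also did not overlap, with 8.30, 7.60 and 7.57 TPM in heterozygous leaves, against 4.83, 6.44, 7.42 and 6.78 TPM in sibling leaves. Its log2 fold change was 0.21 with an interval of -0.35 to 0.77. The paralogue is far below LTPG2 in level, and the pair summed to 53.7 ± 7.07 TPM in heterozygous leaves (SD, n = 3) and 107 ± 11.9 TPM in sibling leaves (SD, n = 4).

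AAO3 (AT2G27150), which encodes the abscisic aldehyde oxidase and is the partner of AAO2, had 3.85, 2.13 and 2.72 TPM in heterozygous leaves, against 2.07, 2.23, 3.11 and 2.49 TPM in sibling leaves. SUS1 (AT5G20830), the partner of SUS4, had 9.20, 3.56 and 5.10 TPM in heterozygous leaves, against 5.03, 3.85, 8.26 and 6.17 TPM in sibling leaves. Both overlapped between the groups, with log2 fold changes of 0.14 ± 0.166 for AAO3 and -0.06 ± 0.421 for SUS1, and both values changed sign when single leaves were left out. AT5G20885, the RING/U-box partner of AT3G43430, had 9.03, 10.5 and 11.5 TPM in heterozygous leaves, against 13.0, 10.4, 10.2 and 8.24 TPM in sibling leaves, again with overlap.

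The paralogue with the lowest log2 fold change was AT5G20790, whose partner AT3G43110 did not pass the filter. It had 0.609, 0.830 and 0.515 TPM in heterozygous leaves, against 3.40, 1.27, 4.63 and 0.904 TPM in sibling leaves, a log2 fold change of -2.04 ± 0.758 (unadjusted p = 0.0176, adjusted p = 1, edgeR). The sibling leaves differed widely among themselves, and the lowest of them came close to the heterozygous leaves. AT5G20810, an auxin-responsive SAUR family gene, had a log2 fold change of -0.68 ± 0.467, and AT5G20860, the pectin methylesterase partner of PME32, stayed at 0.0115 TPM or less in these leaves. LCR9, PRK6, AT5G32590 and AT5G33898 did not pass the filter, so that the paralogues of LCR33, PRK3, AT3G43148 and AT3G43150 give no information in leaves.

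The assignment of reads between partners was examined in their sequences. Over aligned coding bases, SUS4 and SUS1 shared 84.3%, SAC3 and SAC4 81.7%, BPM6 and BPM5 79.3%, AT3G43430 and AT5G20885 76.2%, JAZ11 and JAZ12 69.8%, AAO2 and AAO3 68.5%, PME32 and AT5G20860 60.6%, and LTPG2 and AT2G27130 58.6%. The longest stretch without a mismatch was 50 bases, in the SAC pair. In homozygous seedlings SAC3 stood at 0 TPM on average with SAC4 at 11.1 TPM, so that reads of this paralogue were not assigned to SAC3.

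Other relatives of the deleted genes were also examined, since they could share their function. The list of 28 relatives, which includes 5 of the paralogues above, had 27 tested members, none of which was called by edgeR or DESeq2, and its median log2 fold change was 0.08. The unadjusted p was under 0.05 for GCP4, another gamma-tubulin complex gene, with 1.304, 1.17 and 1.55 TPM in heterozygous leaves, against 0.681, 1.13, 1.18 and 0.833 TPM in sibling leaves (log2 fold change 0.41 ± 0.180, unadjusted p = 0.0389, adjusted p = 1, edgeR). The groups overlapped. GCP2 and GCP3 of the same complex had log2 fold changes of 0.21 and 0.14. Among aldehyde oxidases, AAO1 had 0.74 ± 0.361 (adjusted p = 1, edgeR) and AAO4 was hardly detected. Among the ubiquitin ligase adaptors, BPM1, BPM2, BPM3 and BPM4 lay between 0.01 and 0.10. In TPM, every heterozygous leaf lay above every sibling leaf for BPM1, BPM2 and BPM3, as it did for BPM5. This pattern was shown by 6.08% of all tested genes. Log2 ratios in TPM lay above the log2 fold changes of the model by 0.09 (median over genes), about the size of these values.

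The phosphatase genes SAC1, SAC2 and SAC5 had log2 fold changes of 0.09, -0.01 and 0.22, and the sucrose synthase genes SUS2, SUS3, SUS5 and SUS6 lay between -0.05 and 0.08. Of the relatives of MIN7, BIG1, BIG2 and BIG3 lay between -0.00 and 0.19, and BIG4, which is hardly expressed in leaves, had -0.23 ± 0.863. NACK1, the other kinesin gene of this kind, had 0.04 ± 0.494. LTPG1, which acts with LTPG2 on wax export in Arabidopsis and is the more abundant of both, had 255, 223 and 232 TPM in heterozygous leaves, against 238, 206, 239 and 228 TPM in sibling leaves (log2 fold change -0.05 ± 0.153). FAX1 of the family of AT3G43520 had 27.3, 25.4 and 30.1 TPM in heterozygous leaves, against 24.3, 27.5, 31.6 and 26.2 TPM in sibling leaves. Neither gene separated the groups.

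Genes next to the breaks keep both copies in heterozygous plants, and their levels mark where the reduced dose ends. Within 1 Mb of a break, 112 genes outside the deletion were tested, 16 to the left and 96 to the right. None was called by edgeR or by DESeq2, and the median log2 fold change was 0.00. An unadjusted p under 0.05 was found for 3 of them, and for 4.7% of all genes tested (edgeR). The 112 include FAR4, AT3G44710, AT3G45070 and AT3G45080, which had a log2 fold change of 0.00 without a standard error. Such genes give no information on dose in leaves. Of the 5 tested genes nearest to the left break, AL3 (AT3G42790), a PHD finger gene of the alfin-like family, was the one clearly expressed, with 42.4, 52.6 and 52.2 TPM in heterozygous leaves, against 41.0, 43.6, 40.6 and 39.9 TPM in sibling leaves. AT3G42860, AT3G42850, AT3G42800 and AT3G42725 were low and had log2 fold changes of -0.10, 0.18, -0.56 and -0.36, none of them called.

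The first tested gene past the right break, 4.84 kb from it, was AT3G43740, which encodes a leucine-rich repeat protein. It had 18.5, 17.0 and 16.6 TPM in heterozygous leaves, against 14.7, 18.1, 19.0 and 17.3 TPM in sibling leaves, a log2 fold change of -0.08 ± 0.113 with overlapping groups. ZIFL2, a zinc-induced facilitator-like transporter gene, had -0.09 ± 0.182, GSTU27, a glutathione transferase gene, had -0.16 ± 0.195, and AT3G43840, a steroid dehydrogenase family gene, had 0.54 ± 0.765. CAM7 (AT3G43810), a calmodulin gene, had 81.7, 79.7 and 81.5 TPM in heterozygous leaves, against 82.4, 89.1, 91.4 and 80.1 TPM in sibling leaves (log2 fold change -0.18 ± 0.120, unadjusted p = 0.166, edgeR). LTPG2, the last expressed gene inside the deletion, and AT3G43740 thus lie on either side of the step.

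**Figure D4:**
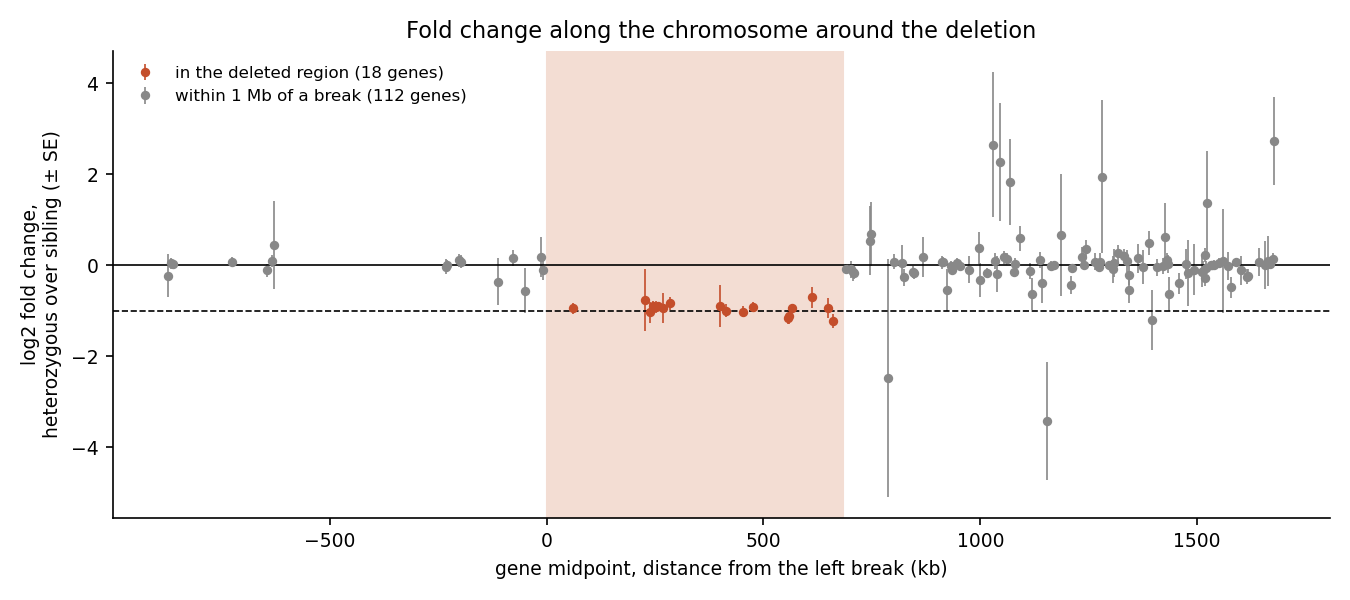
Log2 fold change (heterozygous over sibling, ± SE) of tested genes against the distance of the gene midpoint from the left break in kb, with the deleted region shaded. The 18 genes in the shaded region lie near the dashed line at -1, with a median of -0.94, and the 112 genes around it have a median of 0.00.

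Outside the deletion no gene of 20815 was called by edgeR. At an unadjusted p under 0.05 there were 964 of them, 4.63%, with 592 higher (2.84%) and 372 lower (1.79%) in heterozygous leaves. These shares depend on the filter, which some genes passed only with the homozygous seedlings in the fit. With leaf samples only, 1326 of 18976 tested genes, deleted genes included, had an unadjusted p under 0.05 (edgeR). With the compared groups only it was 1386 of 18760. DESeq2 called 24 genes outside the deletion, 22 higher and 2 lower, beside 14 deleted genes, all lower. Of the 20057 genes to which it gave an adjusted p it called 0.189%, 0.11% as higher and 0.0798% as lower. The lowest edgeR adjusted p among these 24 was 0.0707, for MES8 (AT2G23590). Libraries were similar in depth, with 29810962 to 41867004 assigned reads in the 7 leaves.

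**Figure D5:**
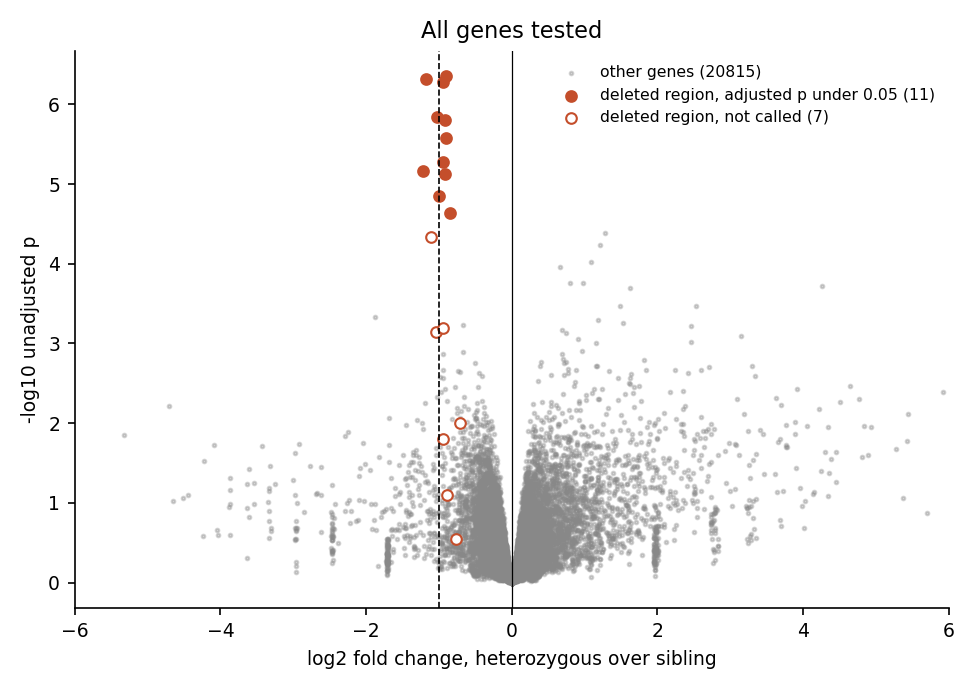
Unadjusted p (as -log10) against log2 fold change (heterozygous over sibling) for all genes tested, with 4 genes beyond the plotted range of 6 left out. The 11 called genes, all from the deleted region, stand above the other genes at a log2 fold change of -1.22 to -0.84.

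The genes of 15 pathway lists were counted in the same fit, and none of their tested members was called by edgeR or DESeq2. Over these, the family list and 5 marker lists, 248 distinct genes were tested and 14 had an unadjusted p under 0.05, 5.65% against 4.7% of all genes tested. The list closest to a deleted gene was that of jasmonate synthesis and response, in which JAZ11 is a repressor. Its 27 tested genes had a median log2 fold change of 0.10, and JAZ5 alone had an unadjusted p under 0.05, with 7.02, 8.88 and 10.3 TPM in heterozygous leaves, against 2.96, 5.08, 7.03 and 4.46 TPM in sibling leaves (log2 fold change 0.77 ± 0.288, adjusted p = 1, edgeR), which narrowly overlap. The list of cold and abscisic acid response, named for the hormone that AAO3 helps to make, had a median of 0.32 over 15 genes, with LTI30, a dehydrin gene, at 1.90 ± 0.670 (adjusted p = 1, edgeR). LTI30 had 35.9, 13.7 and 3.34 TPM in heterozygous leaves, against 2.002, 3.01, 9.67 and 3.43 TPM in sibling leaves, which overlap.

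Medians of the other lists of metabolism and growth were -0.12 for light harvesting and Rubisco, -0.03 for morning clock genes, 0.01 for evening clock genes, 0.34 for dark-inducible genes, 0.08 for flavonoid genes, -0.28 for aliphatic glucosinolate genes, 0.18 for mitotic genes and 0.08 for iron homeostasis. The Rubisco small subunit genes RBCS2B and RBCS1B had log2 fold changes of -0.49 ± 0.196 and -0.54 ± 0.227, and SUR1 of glucosinolate synthesis had -0.37 ± 0.160 (adjusted p = 1 for each, edgeR). RBCS2B had 6055, 6062 and 6021 TPM in heterozygous leaves, against 8423, 7245, 7445 and 8445 TPM in sibling leaves, without overlap. Of all tested genes, 1.25% lay lower in this way. Stress lists had medians of -0.31 for heat shock, with HSP18.2 at -0.69 ± 0.267, of 0.23 for DNA damage response and of 0.33 for endoplasmic reticulum stress, with the chaperone gene BIP3 at 2.65 ± 0.955 (adjusted p = 1 for each gene, edgeR). All 9 endoplasmic reticulum stress genes had a positive log2 fold change. Their sum was 329 to 424 TPM in heterozygous leaves and 237 to 283 TPM in sibling leaves, without overlap. Single genes lay higher without overlap in TPM in 6.08% of those tested, and no such share was computed for sums. Positive values were also found for 14 of 14 mitotic, 9 of 9 dark-inducible, 1 of 22 light harvesting and Rubisco and 0 of 12 aliphatic glucosinolate genes. The sums of these other lists overlapped between the groups. Over all genes tested the median log2 fold change was 0.00.

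Markers of root, of shoot meristem and boundary, and of flower and pollen were low in both groups. Root markers summed to 0.855 to 1.33 TPM in heterozygous leaves and 0.849 to 1.86 TPM in sibling leaves, with EXPA7, IRT1 and RHD6 at 0 throughout. Shoot meristem and boundary markers summed to 0.104 to 0.201 TPM in heterozygous leaves and 0.0504 to 0.391 TPM in sibling leaves, with WUS at 0. Flower and pollen markers summed to 1.28 to 2.14 TPM in heterozygous leaves and 1.62 to 2.17 TPM in sibling leaves, with A9 at 0. Epidermis, stomata and trichome markers summed to 40.5 to 45.4 TPM in heterozygous leaves and 29.4 to 50.5 TPM in sibling leaves. Light harvesting and Rubisco genes, which mark green leaf tissue, summed to 193961 to 221790 TPM in heterozygous leaves and 191155 to 228481 TPM in sibling leaves. None of these ranges separated the groups, and median log2 fold changes were 0.00, -0.18, 0.03 and 0.13 for the marker lists of root, meristem, flower and epidermis. Of the 9 root markers, all tested, 4 were at 0 in every one of these leaves. Meristem markers were near 0 as well, with KNAT1 at 0.0322 TPM or less. The root and meristem medians therefore give no information on a difference between the groups.

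Against Col-0 leaves, a second wild type with both copies, the same heterozygous leaves gave 4 genes higher (0.0192%) and 14 lower (0.0672%), 0.0864% of the genes tested in all. Of the 18 tested genes of the block, 11 were called lower, and the median log2 fold change of the 18 was -0.97. MIN7 was not called against Col-0 (adjusted p = 0.0717, edgeR), while AAO2 was (adjusted p = 0.0271, edgeR). Outside the deletion 7 genes were called against Col-0. For 3 of them the siblings were called against Col-0 too, and heterozygous and sibling leaves overlapped. AT4G08190 had 8.03 to 9.61 TPM in heterozygous leaves, 7.78 to 11.2 TPM in sibling leaves and a mean of 0.0172 TPM in Col-0 leaves. AT4G03157 had 4.21 to 13.5 TPM in heterozygous leaves and 5.24 to 12.4 TPM in sibling leaves and was listed at 0 in Col-0 leaves. RGF6 was at 0 in heterozygous leaves and at 0.159 TPM or less in sibling leaves, with a mean of 4.89 TPM in Col-0 leaves. AT1G15010, PP2-B11, AT3G46880 and SAUR15, the other 4, did not overlap between heterozygous and sibling leaves, and none was called between them by edgeR. Of all tested genes, 6.08% lay higher without overlap and 1.25% lower in TPM. The 4 genes were selected because the same heterozygous leaves differed from Col-0 in them. Of these the F-box gene PP2-B11 (AT1G80110) had 4.51, 3.83 and 4.597 TPM in heterozygous leaves, against 2.39, 2.44, 2.67 and 2.68 TPM in sibling leaves (adjusted p = 0.0278 against Col-0 and 0.141 against siblings, edgeR). Both comparisons share the heterozygous samples. Siblings differed from Col-0 in 3 genes (0.0144% of those tested, 2 higher or 0.0096% and 1 lower or 0.0048%). None of the 18 tested genes of the block was among them, none had an unadjusted p under 0.05 (1.92% of all genes did) or was called by DESeq2, and their median log2 fold change between these wild types was -0.02.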

How the data were processed

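RNA-seq libraries were stranded and made from poly(A) RNA. Reads were quantified by the authors with salmon 1.6.0 on the primary transcripts of Araport11, and the submitters' processing notes also name HISAT2 2.2.1 and DESeq2 1.44.0. The deposited estimated counts are reads assigned to each transcript and are not normalized. The deposited TPM values are the authors' levels per transcript length. Listed lengths are coding lengths, so that reads of untranslated regions do not count. The heterozygous and sibling samples are single plants of 1 line. The p-values rest on the spread between samples within groups, estimated over all 15 samples of the fit. These include the homozygous seedlings and the Col-0 leaves.

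Estimated counts were rounded to whole numbers. All 15 samples of the pAP146 experiment entered 1 model with 4 groups in edgeR 4.0.16 (R 4.3.3), with filterByExpr (20833 of 27538 genes kept), TMM scaling and robust quasi-likelihood tests. Calls had a Benjamini-Hochberg p below 0.05, adjusted over the whole table. Standard errors and 95% intervals came from this fit. The procedure was tested on simulated data. The scaling of TPM and of the model differed by 0.09 (log2, median). Spacers and coding sequences were matched to RefSeq TAIR10.1, with Biopython 1.88 under Python 3.11.15 and pandas 2.3.3. Figures were drawn with matplotlib 3.10.9.

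Members and lists were chosen with earlier results of these data known. Named were all tested genes of the block, all 14 paralogues, the 5 tested genes nearest to each break, relatives of deleted genes and, since no list member was called, up to 4 members per list with an unadjusted p under 0.05. The rule for called genes outside the deletion (at least 5 TPM, no overlap) found none. MES8, the 7 genes called against Col-0 outside the deletion and the genes in the closing observations were named after their values were seen. The alternatives were RLE size factors, no filter, leaf samples only, the compared groups only, a replicate block, DESeq2 1.42.0, a threshold of 0.1, leaving out single samples, and for totals TMM-normalized CPM, a minimum of 1 TPM, Col-0 as wild type and leaving out the most abundant gene. The 19 samples of the time-of-day experiment were not used here.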

Additional observations from a re-analysis of the deposited data

Results flagged for a closer look

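In the 4 sibling leaves, 75 values were examined for a leaf that stood apart from the others by more than 0.829 of the range of the group (Dixon's test at the 95% level), and 4 such values were found. Chance gives about 1 in 20 groups. AAO2 was highest in sibling replicate 3, at 3.52 TPM, with the other sibling leaves at 2.38 to 2.54 TPM. AT5G20860, the paralogue of PME32, was at 0 TPM in sibling replicate 3, with the others at 0.00929 to 0.0105 TPM, a level of single reads. ALD1, an aminotransferase gene of pipecolic acid synthesis in systemic resistance, was highest in sibling replicate 4, at 0.436 TPM, with the others at 0.0378 to 0.0878 TPM. WRKY46, a transcription factor gene of the early defence response, was highest in sibling replicate 2, at 2.77 TPM, with the others at 1.62 to 1.81 TPM. The group of 3 heterozygous leaves is too small for this test.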

How the results depend on the processing

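The 60-gene total kept its ratio of 0.513 and the median log2 fold change its value of -0.94 within the spread between leaves under all alternatives, with 0.499 to 0.534 and -1.01 to -0.91 when single leaves were left out. With a threshold of 0.1, 14 genes were called, 12 of them deleted genes. The counts of calls moved more. In heterozygous against sibling leaves, 11 genes were called, 38 with DESeq2, 0 with the replicate block, 17 when sibling and Col-0 leaves were averaged as wild type (chosen after the data were seen, 12 of them deleted genes and 5 higher outside), and 0 to 8 with single leaves left out. The calls among deleted genes were 0 with the block and 0 to 8 with single leaves left out. The counts of heterozygous against Col-0 leaves were 18 in the fit of the report, 157 with DESeq2, 29 with leaf samples only, 4 with the replicate block, and 9 to 15 with single leaves left out. The values gave no sign that replicate numbers pair the leaves. Same-numbered residuals correlated at -0.0447, 0.115 and -0.248, and those with different numbers at -0.286 to 0.37. Of 3 heterozygous leaves, 1 correlated best with its own number. With so few leaves this check cannot exclude a pairing. Under the block 17 of the 18 tested deleted genes, and 826 genes in all, had an unadjusted p under 0.05, and the adjusted p of the 11 genes was 0.0907 to 0.24 (edgeR). With leaf samples only, MES8 and UGT73B1 were called outside the deletion, and with the compared groups only, UGT74F2 was, while MIN7 lost its call (adjusted p = 0.123, edgeR). The 9 paralogues that also pass the filter in leaf samples, a choice made after the data were seen, had 0 calls as well (edgeR).

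Several single genes changed sign, most with log2 fold changes near 0 but also AT3G43840 at 0.54, BIG4 at -0.23 and FMO1 at 4.30. Under the block SUS5 was 0.00, BPM1 -0.00, BPM4 -0.02 and BIG4 0.03. With single leaves left out, the ranges were -0.09 to 0.29 for AAO3, -0.49 to 0.17 for SUS1, -0.58 to 0.22 for AT5G20860, -0.21 to 0.06 for AT5G20885, -0.03 to 0.42 for AT3G42850, -0.29 to 0.00 for AT3G42860, -0.56 to 0.91 for AT3G43840, -0.03 to 0.19 for SUS2, -0.29 to 0.38 for SUS3, -0.20 to 0.09 for SUS5, -0.06 to 0.04 for SUS6, -0.03 to 0.05 for BPM1, -0.06 to 0.04 for BPM4, -0.09 to 0.06 for SAC2, -0.06 to 0.11 for BIG1, -0.08 to 0.18 for BIG2, -0.47 to 0.34 for BIG4, -0.17 to 0.47 for NACK1, -0.10 to 0.02 for LTPG1, -0.01 to 0.31 for GCP3 and -0.37 to 6.5 for FMO1. These genes were not called in any of these fits. The cause was not tested.

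With 3 and 4 plants, calls among the 18 tested genes had standard errors of 0.157 or less, and the 42 genes that did not pass the filter give no dose. All plants descend from 1 deletion event.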

Other observations

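The list of salicylic acid and defence genes had a positive log2 fold change for all 17 members, with a median of 0.89 against 0.00 over all genes tested, but none was called by edgeR or DESeq2 and 3 had an unadjusted p under 0.05. Its summed level was 207, 228 and 574 TPM in heterozygous leaves, against 83.6, 119, 106 and 151 TPM in sibling leaves and 95.2 to 191 TPM in Col-0 leaves. The groups did not overlap, and heterozygous replicate 3 was far above the other leaves. Single genes lay higher without overlap in TPM in 6.08% of those tested, and no such share was computed for sums. PR2, a pathogenesis-related glucanase gene, had 14.9, 32.2 and 71.1 TPM in heterozygous leaves, against 4.36, 2.36, 7.15 and 10.6 TPM in sibling leaves (log2 fold change 2.59 ± 0.841, unadjusted p = 0.00836, adjusted p = 1, edgeR). ALD1 had 1.42, 0.427 and 4.74 TPM in heterozygous leaves, against 0.0878, 0.0378, 0.0427 and 0.436 TPM in sibling leaves, which overlap. FMO1, which acts after ALD1 in the same pathway, had 0, 0.0387 and 1.39 TPM in heterozygous leaves, against 0, 0, 0.0120 and 0.0661 TPM in sibling leaves, so that its value rests on heterozygous replicate 3. In the list of early elicitor and wound response genes, with a median of 0.42, the transcription factor gene WRKY53 had 3.30, 6.66 and 25.8 TPM in heterozygous leaves, against 1.64, 6.94, 2.71 and 2.68 TPM in sibling leaves, and WRKY46 had 2.50, 4.08 and 9.35 TPM in heterozygous leaves, against 1.62, 2.77, 1.78 and 1.81 TPM in sibling leaves.

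The 24 genes that DESeq2 called outside the deletion, and edgeR did not, were examined after their values were seen. They were selected for this difference, and none overlapped between heterozygous and sibling leaves in TPM. Of all tested genes, 6.08% lay higher without overlap and 1.25% lower. Those higher in heterozygous leaves included MES8, a methyl esterase family gene, with 4.602, 4.82 and 3.801 TPM in heterozygous leaves, against 1.72, 1.76, 1.52 and 1.75 TPM in sibling leaves (adjusted p = 0.000442 in DESeq2 and 0.0707 in edgeR). The NAC transcription factor gene ATAF1 had 25.3, 13.5 and 22.05 TPM in heterozygous leaves, against 8.26, 7.08, 7.22 and 9.61 TPM in sibling leaves (adjusted p = 0.000383 in DESeq2 and 0.0875 in edgeR). The receptor-like kinase genes CRK3 and CRK2, which are neighbours on chromosome 1, had log2 fold changes of 1.09 and 0.75 in edgeR. CRK3 had 10.5, 6.79 and 12.3 TPM in heterozygous leaves, against 4.39, 3.08, 5.57 and 4.30 TPM in sibling leaves. UGT73B1 and CYP81D8, genes of glucosyl transfer and of the cytochrome P450 family, had log2 fold changes of 1.15 and 2.46. One of the 2 lower genes was AT1G22690, of the gibberellin-regulated family, with 57.9, 57.3 and 84.4 TPM in heterozygous leaves, against 94.2, 102, 94.3 and 103 TPM in sibling leaves.

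Markers of senescent leaves gave 29.5, 31.5 and 30.9 TPM in heterozygous leaves, against 11.7, 9.44, 22.9 and 37.7 TPM in sibling leaves, with SAG12 at 0 in all 7. These sums overlapped, and the 3 tested markers had a median log2 fold change of 0.84. The regulator ORE1 had 2.19, 1.53 and 2.54 TPM in heterozygous leaves, against 0.694, 0.811, 1.38 and 1.03 TPM in sibling leaves (log2 fold change 1.0 ± 0.358, adjusted p = 1, edgeR). Their part in the differences above was not tested.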
